A study of Mus musculus with 20 samples.

Results

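The G1/S genes described here were followed through mouse oocyte maturation and the first division of the embryo: the E cyclins Ccne1 and Ccne2, the A cyclins Ccna1 and Ccna2, the D cyclins Ccnd1, Ccnd2 and Ccnd3, the kinases Cdk2 and Cdk4, and Cdkn1b, which encodes the CDK inhibitor p27. The members are a list of 10 named genes out of the 23309 gene symbols in the deposited files. The RNA-seq libraries form 2 experiments, all on the ICR strain, each library made from a pool of 60 oocytes or embryos of females aged 21 to 23 days that had received PMSG and hCG. The Btg4 experiment has 16 libraries, 2 each for labelled Btg4-/- and wild type at the germinal vesicle (GV) oocyte, the metaphase II (MII) oocyte, the zygote and the 2-cell embryo. The Erk experiment has 4 libraries, 1 each for labelled Erk-/- and wild type at GV and at MII. Embryos came from mated females, so their genotype label is that of the mother; the genotype of the males is not given in the sources used here. Neither the Btg4 allele, nor the Erk gene or genes deleted, nor any Cre driver is given there. The treatment text names wild-type and Btg4-/- females only. No label says that the 2 libraries of a group came from separate females, so the tests measure the spread between these libraries, which may be technical.

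D cyclins activate Cdk4 early in G1, and E cyclins activate Cdk2 at the entry into S phase, in part by relieving the block that retinoblastoma proteins place on E2F transcription factors. Ccna2 takes over Cdk2 in S phase and also works with Cdk1 in G2 and meiosis, Ccna1 is best known from male germ cells, and p27 binds and restrains cyclin E-Cdk2 and cyclin A-Cdk2. A GV oocyte rests in the first meiotic prophase and an MII oocyte in the second meiotic metaphase. Transcription is silent between them and for much of the zygote stage, and many maternal mRNAs are deadenylated and degraded; BTG4 is an adaptor of the CCR4-NOT deadenylase in that process. The embryo's own transcription becomes strong at the 2-cell stage in the mouse.

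Values are FPKM, a fragment count divided by the transcript's length and by the library's total of mapped fragments. Levels of different genes are compared on this length-scaled unit, and differences are on the log2(FPKM + 1) scale with the adjusted p of limma, two-sided, over 12311 genes; a call is an adjusted p under 0.05. In these pools less RNA per oocyte or embryo cannot be told apart from fewer cells contributing it, and FPKM gives shares of a library, not amounts. The Btg4 experiment's libraries spanned 0.714 to 1.31 times the depth of the first labelled Btg4-/- GV library, judged from the deposited intervals. Btg4 itself was present in every library labelled Btg4-/-. It was above wild type at GV, with 1980 and 1881 FPKM in labelled Btg4-/- oocytes, against 1450 and 1673 FPKM in wild-type ones, and in 2-cell embryos, with 3514 and 3632 FPKM, against 1147 and 963.6 FPKM in wild type. It was below wild type at MII, with 172 and 191 FPKM in labelled Btg4-/- oocytes, against 415 and 406 FPKM in wild-type ones, and in zygotes, with 139 and 164 FPKM, against 610 and 559 FPKM in wild type. Whether the counted part of the gene lies outside the deletion is not given, so the libraries are called by their labels throughout. All 10 oocyte markers reached 1 FPKM in every library, embryos included, and in 2-cell embryos they summed to between 10130 and 10520 FPKM in labelled Btg4-/- and between 3198 and 3335 FPKM in wild type. The 9 measured 2-cell transcripts of a 10-gene marker list summed to between 15.1 and 16.3 FPKM in labelled Btg4-/- 2-cell embryos and between 142 and 208 FPKM in wild-type ones; the part of either difference in the 2-cell results was not tested. Blood markers summed to at most 1.53 FPKM in labelled Btg4-/- MII oocytes and to between 50.3 and 84.96 FPKM in wild-type MII oocytes; their part in the MII results was not tested.

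**Figure D1:**
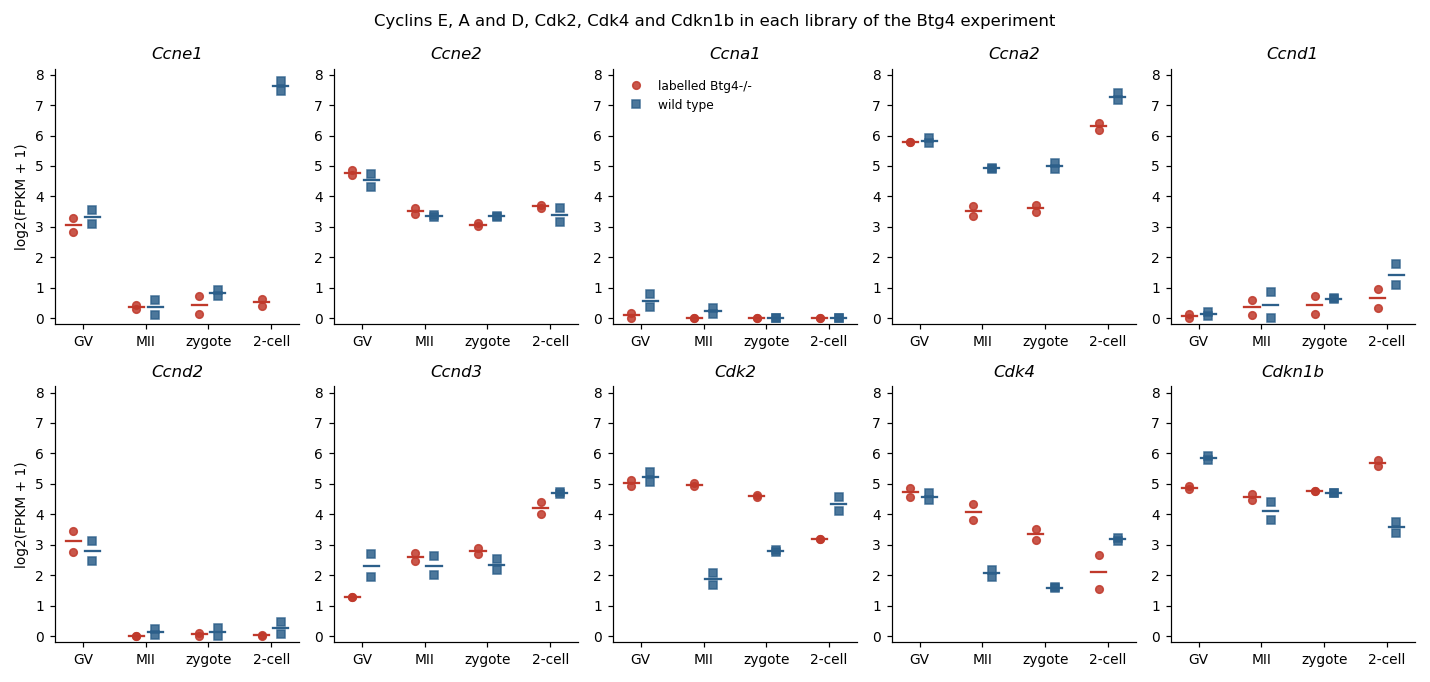
Level of each of the 10 genes in every library of the Btg4 experiment, on the log2(FPKM + 1) scale, by stage from GV to the 2-cell embryo. Each point is 1 library and each bar the mean of 2, with labelled Btg4-/- left of wild type at each stage, and the step to 176 and 222 FPKM of Ccne1 is seen in wild-type 2-cell embryos alone.

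Of the E cyclins, Ccne1 (mm9 chr7:38883003-38892509) had the widest range of the 10 genes. In labelled Btg4-/- libraries it stood at 8.76 and 6.04 FPKM in GV oocytes, 0.337 and 0.231 FPKM in MII oocytes, 0.645 and 0.101 FPKM in zygotes, and 0.311 and 0.558 FPKM in 2-cell embryos. In wild type it stood at 10.8 and 7.62 FPKM in GV oocytes, 0.519 and 0.0855 FPKM in MII oocytes, 0.639 and 0.886 FPKM in zygotes, and 176 and 222 FPKM in 2-cell embryos. It was thus low in every library of both genotypes after GV except the 2 wild-type 2-cell libraries. At the 2-cell stage it averaged 0.434 ± 0.175 FPKM in labelled Btg4-/- embryos and 198.7 ± 32.5 FPKM in wild-type embryos (SD, n = 2 each), a log2 difference of -7.12 (SE 0.29, adjusted p = 2.57e-09). The interval deposited with the first labelled Btg4-/- value reaches 0, and that of the second corresponds to about 6 fragments, so the size of that difference rests on few fragments on one side. Both wild-type values lie above the upper ends of their own deposited intervals, 170 and 217 FPKM. From GV to MII Ccne1 fell in both genotypes, by 2.69 in labelled Btg4-/- oocytes (adjusted p = 7.47e-06) and fell by 2.97 in wild type (adjusted p = 2.47e-06), both on the log2 scale; with a pseudocount of 0.1 FPKM those differences were -4.28 and -4.76. From zygote to 2-cell the log2 difference was 0.09 in labelled Btg4-/- embryos (adjusted p = 0.859), and Ccne1 rose by 6.82 in wild type (adjusted p = 2.11e-09). That step differed between the genotypes by -6.73 (adjusted p = 1.24e-07).

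Ccne2 (mm9 chr4:11118501-11131926), the other E cyclin, did not follow it. It stood at 24.8 and 28.3 FPKM in labelled Btg4-/- GV oocytes, against 19.0 and 25.5 FPKM in wild-type GV oocytes, and at 11.4 and 12.2 FPKM in labelled Btg4-/- 2-cell embryos, against 7.85 and 11.4 FPKM in wild-type ones. In MII oocytes and zygotes all 8 values lay between 7.10 and 11.4 FPKM. The log2 difference of labelled Btg4-/- from wild type was 0.25 at GV, 0.18 at MII, -0.27 in zygotes and 0.29 in 2-cell embryos, with adjusted p between 0.265 and 0.554, and none was called; without the second wild-type 2-cell library the 2-cell difference was 0.53 and called (adjusted p = 0.048). Ccne2 fell from GV to MII in both genotypes, by 1.25 in labelled Btg4-/- oocytes (adjusted p = 0.000214) and by 1.18 in wild type (adjusted p = 0.00029). Markers of granulosa cells, given with Ccnd2, were also lower at MII than at GV, and their part in the falls from GV to MII was not tested. The rise of 0.60 of Ccne2 from zygote to 2-cell in labelled Btg4-/- embryos (adjusted p = 0.0276) was lost when any 1 of those 4 libraries was left out, with adjusted p of 0.0583 to 0.124. Within a library the ratio of Ccne1 to Ccne2 was 0.0273 and 0.0458 in labelled Btg4-/- 2-cell embryos, against 22.4 and 19.5 in wild-type ones, while at GV it was 0.353 and 0.214 in labelled Btg4-/- oocytes, against 0.569 and 0.299 in wild-type ones. In the Btg4 experiment Ccne2 thus led the pair in all 4 GV libraries and in the labelled Btg4-/- 2-cell embryos, and Ccne1 led it in wild-type 2-cell embryos. Ccne2 overlaps Ints8 over 5622 bases in the files' coordinates, and whether strand was used in counting is not given, so its values are uncertain to that extent.

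**Figure D2:**
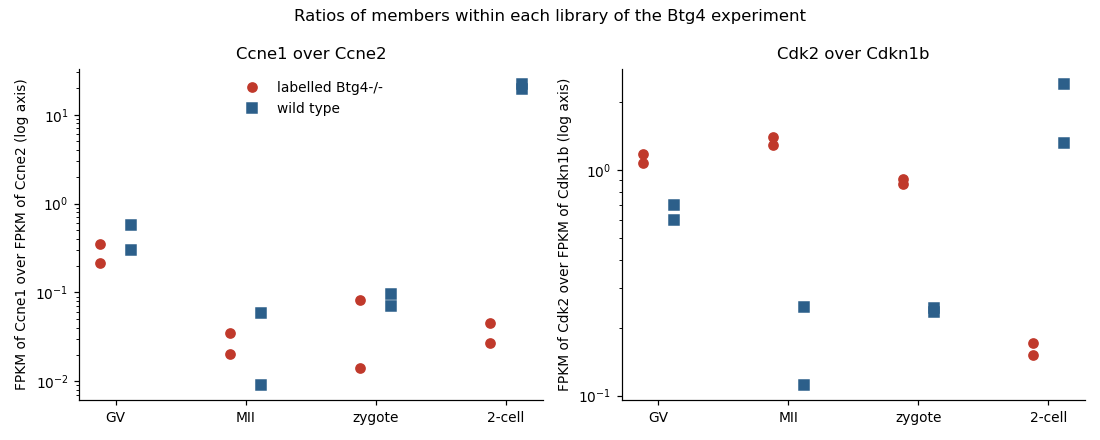
Ratios of FPKM within each library of the Btg4 experiment on a log axis: Ccne1 over Ccne2, and Cdk2 over Cdkn1b. Each point is 1 library, with labelled Btg4-/- left of wild type at each stage; in 2-cell embryos the first ratio is 0.0273 and 0.0458 against 22.4 and 19.5, and the second is 0.172 and 0.151 against 1.31 and 2.41.

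Of the A cyclins, Ccna1 (mm9 chr3:54849391-54858977) was near 0 throughout. It stood at 0 and 0.134 FPKM in labelled Btg4-/- GV oocytes, against 0.279 and 0.742 FPKM in wild-type ones, at 0.268 and 0.11 FPKM in wild-type MII oocytes, and was listed at 0 in every other library of both experiments. It did not reach the mean of 1 FPKM needed to enter the fit.

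Ccna2 (mm9 chr3:36463787-36470918) was the most abundant cyclin of the set at every stage in wild type but the 2-cell stage. In labelled Btg4-/- libraries it stood at 54.4 and 53.95 FPKM in GV oocytes, 9.17 and 11.8 FPKM in MII oocytes, 10.2 and 12.2 FPKM in zygotes, and 71.8 and 84.2 FPKM in 2-cell embryos. In wild type it stood at 52.5 and 59.99 FPKM in GV oocytes, 29.2 and 29.2 FPKM in MII oocytes, 32.95 and 29.1 FPKM in zygotes, and 144 and 166 FPKM in 2-cell embryos. The genotypes overlapped at GV, and at each later stage both labelled Btg4-/- values lay below both wild-type values. Of all genes fitted, 32.5% lay below in this way at MII, 35.3% in zygotes and 36% in 2-cell embryos. The log2 difference was -0.05 at GV (adjusted p = 0.947), -1.41 at MII (SE 0.16, adjusted p = 8.58e-06), -1.39 in zygotes (adjusted p = 1.27e-05) and -0.98 in 2-cell embryos (adjusted p = 0.000229). Quantile normalization made the 2-cell difference -1.62 (adjusted p = 3.59e-06). From GV to MII Ccna2 fell by 2.28 in labelled Btg4-/- oocytes (adjusted p = 1.26e-07) and fell by 0.92 in wild type (adjusted p = 0.000312; -0.57 under quantile normalization), and the 2 falls differed by -1.36 (adjusted p = 0.000352). From zygote to 2-cell it rose in both genotypes, by 2.69 in labelled Btg4-/- embryos (adjusted p = 4.37e-08) and by 2.28 in wild type (adjusted p = 9.59e-08), with a difference between those rises of 0.41 (adjusted p = 0.153). Ccna2 overlaps Exosc9 over 863 bases, whose part in its values was not tested.

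The D cyclins differed from one another in when they were present. Ccnd1 (mm9 chr7:152115836-152125830) stayed below 1 FPKM in all libraries of the Btg4 experiment except the wild-type 2-cell embryos: it stood at 0.959 and 0.27 FPKM in labelled Btg4-/- 2-cell embryos, against 1.1 and 2.4 FPKM in wild-type ones. It passed the expression filter through the wild-type 2-cell group alone, with a mean of at most 0.614 FPKM in the other groups, so that no test against that group is read for it.

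Ccnd2 (mm9 chr6:127075727-127101066), the D cyclin through which granulosa cells respond to follicle-stimulating hormone, was present at GV alone. It stood at 5.79 and 9.95 FPKM in labelled Btg4-/- GV oocytes, against 4.54 and 7.64 FPKM in wild-type ones, and reached at most 0.373 FPKM in any later library. The genotypes overlapped at GV, with a log2 difference of 0.32 (adjusted p = 0.614). Ccnd2 fell from GV to MII by 3.11 in labelled Btg4-/- oocytes, where it was listed at 0 in both MII libraries (adjusted p = 1.42e-06), and fell by 2.64 in wild type (adjusted p = 4.92e-06). The smaller pseudocount, 0.1 FPKM, made these differences -6.26 and -4.94. Ccnd2 passed the expression filter through the GV groups alone, so that falls from GV were fixed by the filter in part. The sum of 14 granulosa and cumulus cell markers was also lower at MII than at GV. At GV it lay between 49.2 and 55.2 FPKM in labelled Btg4-/- oocytes and between 69.9 and 77.3 FPKM in wild-type ones. This genotype order at GV was not seen for Ccnd2, whose values overlapped. In MII oocytes the sum lay between 1.28 and 2.19 FPKM in labelled Btg4-/- and between 6.32 and 11.8 FPKM in wild type. Inha, which encodes the inhibin alpha subunit of granulosa cells, made up more of that sum than any other marker checked here, with 31.5 and 25.4 FPKM in labelled Btg4-/- GV oocytes, against 43.7 and 48.0 FPKM in wild-type ones. Fshr and Amh lay between 0.422 and 1.43 FPKM in these 4 libraries, and the cumulus markers Ptx3 and Tnfaip6 were at 0 in all of them. The part of these cells in the Ccnd2 values was not tested.

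Ccnd3 (mm9 chr17:47642000-47736637) had the highest level of the D cyclins in every MII, zygote and 2-cell library of the Btg4 experiment. In labelled Btg4-/- libraries it stood at 1.42 and 1.44 FPKM in GV oocytes, 4.49 and 5.59 FPKM in MII oocytes, 5.41 and 6.38 FPKM in zygotes, and 20.4 and 15.1 FPKM in 2-cell embryos. In wild type it stood at 5.44 and 2.84 FPKM in GV oocytes, 5.12 and 3.04 FPKM in MII oocytes, 3.47 and 4.81 FPKM in zygotes, and 24.6 and 25.8 FPKM in 2-cell embryos. The values thus overlapped at MII, lay higher in labelled Btg4-/- zygotes, and lay lower in labelled Btg4-/- GV oocytes and 2-cell embryos. Of all genes fitted, 38.2% lay higher without overlap in zygotes, and 36.4% at GV and 36% in 2-cell embryos lay lower. Ccnd3 rose from zygote to 2-cell by 1.43 in labelled Btg4-/- embryos (adjusted p = 0.00138) and by 2.36 in wild type (adjusted p = 1.54e-05). It also rose by 1.31 from GV to MII in labelled Btg4-/- oocytes (adjusted p = 0.00231). Of the genotype differences only that at GV, -1.03 (SE 0.29, adjusted p = 0.0481), was called, and it was lost under each of several settings, among them quantile normalization (adjusted p = 0.146) and leaving out the first (0.152) or second (0.192) labelled Btg4-/- GV library or the first wild-type GV library (0.34, with a log2 difference of -0.66). In the other 3 stages the adjusted p lay between 0.174 and 0.468. Ccnd3 overlaps Bysl over 358 bases.

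Cdk2 (mm9 chr10:128134995-128142107), the kinase partner of the E and A cyclins, had the largest log2 difference between genotypes of the 9 tested genes in MII oocytes. In labelled Btg4-/- libraries it stood at 34.3 and 29.6 FPKM in GV oocytes, 29.6 and 31.4 FPKM in MII oocytes, 23.8 and 22.5 FPKM in zygotes, and 8.02 and 8.17 FPKM in 2-cell embryos. In wild type it stood at 32.7 and 41.3 FPKM in GV oocytes, 3.23 and 2.23 FPKM in MII oocytes, 5.85 and 6.12 FPKM in zygotes, and 16.3 and 23.0 FPKM in 2-cell embryos. The labelled Btg4-/- level was lowest in 2-cell embryos and overlapped between GV and MII, and the wild-type level was lowest in MII oocytes. The mean of labelled Btg4-/- libraries was 11.2 times that of wild type at MII and 3.87 times that of wild type in zygotes. On the log2 scale the difference was -0.20 at GV (adjusted p = 0.671), 3.09 at MII (SE 0.20, adjusted p = 6.51e-08), 1.79 in zygotes (adjusted p = 1.11e-05) and -1.16 in 2-cell embryos (adjusted p = 0.000385). The GV to MII difference was -0.06 in labelled Btg4-/- oocytes (adjusted p = 0.853), and Cdk2 fell by 3.35 in wild type (adjusted p = 2.71e-08). From zygote to 2-cell Cdk2 fell by 1.41 in labelled Btg4-/- embryos (adjusted p = 9.24e-05) and rose by 1.54 in wild type (adjusted p = 2.65e-05), and the 2 steps differed by -2.95 (adjusted p = 3.86e-06). The rise of 0.92 from MII to zygote in wild type (adjusted p = 0.00498) was not called under quantile normalization (0.57, adjusted p = 0.0579).

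Cdk4 (mm9 chr10:126500659-126504338), the partner of the D cyclins, went the same way as Cdk2 in every genotype comparison that was called for it. In labelled Btg4-/- libraries it stood at 28.3 and 22.8 FPKM in GV oocytes, 12.9 and 19.2 FPKM in MII oocytes, 10.6 and 7.94 FPKM in zygotes, and 1.91 and 5.34 FPKM in 2-cell embryos. In wild type it stood at 24.8 and 21.3 FPKM in GV oocytes, 2.88 and 3.55 FPKM in MII oocytes, 1.97 and 2.05 FPKM in zygotes, and 7.81 and 8.29 FPKM in 2-cell embryos. Values of the 2 genotypes overlapped at GV. Labelled Btg4-/- libraries were the higher at MII and in zygotes, as were those of 40.7% and 38.2% of all genes fitted. They were the lower in 2-cell embryos, as for 36% of all genes fitted. The mean of labelled Btg4-/- libraries was 5.01 times that of wild type at MII and 4.61 times in zygotes. The log2 difference was 2.00 at MII (SE 0.32, adjusted p = 0.000157), 1.76 in zygotes (adjusted p = 0.000547) and -1.07 in 2-cell embryos (adjusted p = 0.0136). The 2-cell difference depended on single libraries: it was -0.51 (adjusted p = 0.155) without the first labelled Btg4-/- 2-cell library and -1.63 (adjusted p = 0.000711) without the second, and its adjusted p was 0.0539 or 0.0723 without either wild-type one. With 2-cell embryos fitted alone it was not called (adjusted p = 0.194). From GV to MII Cdk4 fell by 2.51 in wild type (adjusted p = 2.2e-05), while the labelled Btg4-/- difference was -0.65 (adjusted p = 0.117; -1.05, adjusted p = 0.0125, under median-of-ratios scaling and -0.83, adjusted p = 0.0453, under quantile normalization). From zygote to 2-cell it fell by 1.24 in labelled Btg4-/- embryos (adjusted p = 0.00632) and rose by 1.59 in wild type (adjusted p = 0.000877). That fall was not called without the first labelled Btg4-/- zygote library (adjusted p = 0.0579) or the first labelled Btg4-/- 2-cell library (-0.68, adjusted p = 0.0674).

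Cdkn1b (mm9 chr6:134870419-134875543), the inhibitor, ran the other way in 2-cell embryos. In labelled Btg4-/- libraries it stood at 29.3 and 27.6 FPKM in GV oocytes, 21.1 and 24.2 FPKM in MII oocytes, 26.2 and 26.0 FPKM in zygotes, and 46.7 and 54.1 FPKM in 2-cell embryos. In wild type it stood at 54.5 and 59.0 FPKM in GV oocytes, 13.1 and 19.98 FPKM in MII oocytes, 24.8 and 24.99 FPKM in zygotes, and 12.4 and 9.55 FPKM in 2-cell embryos. Labelled Btg4-/- values were thus below wild type at GV and above it at every later stage, by little in zygotes. Of all genes fitted, 36.4% lay below without overlap at GV. Above without overlap lay 40.7% at MII, 38.2% in zygotes and 30.6% in 2-cell embryos. The 2-cell mean of labelled Btg4-/- embryos was 4.6 times that of wild-type ones, a log2 difference of 2.11 (adjusted p = 1.54e-06). The GV difference of -0.97 (SE 0.19, adjusted p = 0.00924) was not called without the second labelled Btg4-/- GV library (adjusted p = 0.0743) or without the first (0.0564) or second (0.0775) wild-type one. At MII the difference of 0.46 was not called (adjusted p = 0.0612), and was 0.74 and called without the second wild-type MII library (adjusted p = 0.0072). In zygotes it was 0.06 (adjusted p = 0.834). From GV to MII the log2 difference was -0.32 in labelled Btg4-/- oocytes (adjusted p = 0.201; -0.72, adjusted p = 0.00466, under median-of-ratios scaling), and Cdkn1b fell by 1.75 in wild type (adjusted p = 5.82e-06). From zygote to 2-cell it rose by 0.92 in labelled Btg4-/- embryos (adjusted p = 0.0016) and fell by 1.12 in wild type (adjusted p = 0.000239), and these steps differed by 2.05 (adjusted p = 4.95e-05). A wild-type rise of 0.59 from MII to zygote (adjusted p = 0.0353) was not called without the first wild-type MII library (0.30, adjusted p = 0.289), without the first (0.111) or second (0.13) wild-type zygote library, or under the other scalings (0.32 with median-of-ratios, adjusted p = 0.224, and 0.36 with quantile normalization, adjusted p = 0.208).

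The kinase and its inhibitor can be set against each other within a library. At GV the ratio of Cdk2 to Cdkn1b was 1.17 and 1.07 in labelled Btg4-/- oocytes, against 0.600 and 0.699 in wild-type ones. Cdk2 over Cdkn1b was 1.40 and 1.29 in labelled Btg4-/- MII oocytes, against 0.246 and 0.111 in wild-type ones, and 0.909 and 0.865 in labelled Btg4-/- zygotes, against 0.235 and 0.245 in wild-type ones. In 2-cell embryos the order was the opposite, with 0.172 and 0.151 in labelled Btg4-/- embryos, against 1.31 and 2.41 in wild-type ones. These are ratios of mRNA shares and carry no test.

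By level, wild-type GV oocytes held Cdkn1b and Ccna2 at the top, whose values overlapped, then Cdk2, then Ccne2 and Cdk4, which overlapped, then Ccne1, Ccnd2 and Ccnd3, each overlapping the next, and last Ccna1 and Ccnd1. Wild-type 2-cell embryos were led by Ccne1 and Ccna2, ahead of Ccnd3 and Cdk2, with no overlap among these 4, and then came Cdkn1b, Ccne2 and Cdk4, each overlapping the next. Labelled Btg4-/- 2-cell embryos were led by Ccna2 and Cdkn1b, ahead of Ccnd3, Ccne2, Cdk2 and Cdk4, with no overlap between neighbours, and Ccne1 and Ccnd1 overlapped below 1 FPKM.

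**Figure D3:**
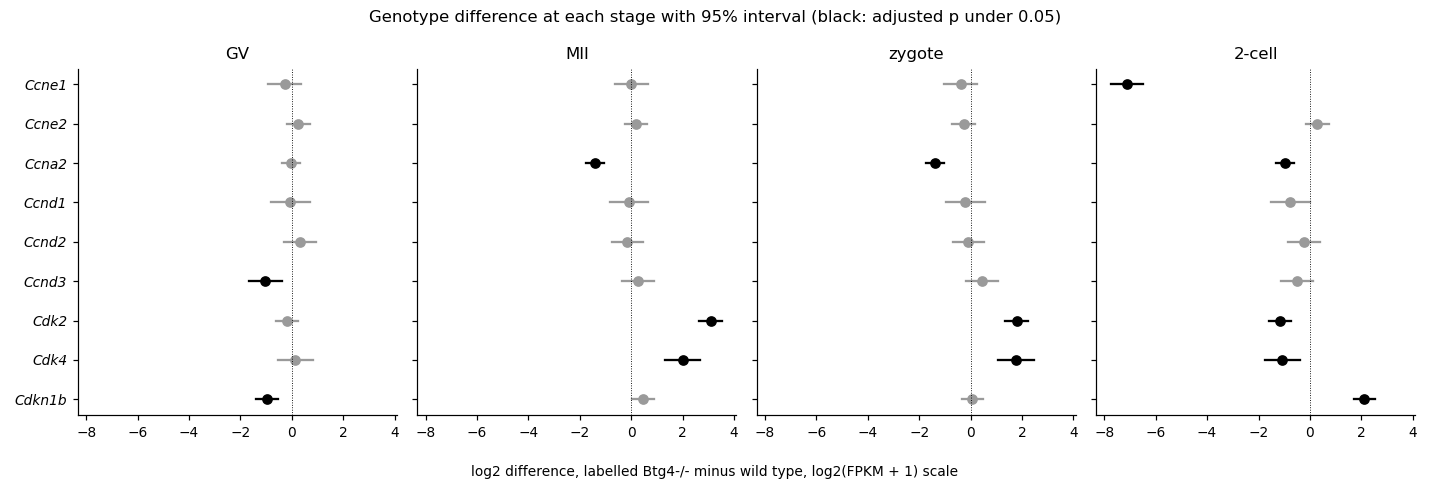
Log2 difference of labelled Btg4-/- from wild type at each stage for the 9 genes in the fit, with 95% confidence intervals from limma (n = 2 libraries a group; black marks an adjusted p under 0.05). Cdk2 and Cdk4 lie above 0 at MII and in zygotes and below it in 2-cell embryos, and Ccne1 reaches -7.12 in 2-cell embryos.

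Counted over the set, 9 of the 10 genes entered the fit, Ccnd1 through wild-type 2-cell embryos alone and Ccnd2 through GV alone, so that the counts and medians below are descriptions. At GV 0 of them were called higher and 2 lower in labelled Btg4-/- oocytes (Cdkn1b and Ccnd3), beside 1.45% higher and 6.46% lower of all genes tested; at an unadjusted p under 0.05 the limma counts were again 0 and 2. At MII 2 were called higher (Cdk2 and Cdk4) and 1 lower (Ccna2), beside 29.1% and 23.3% of all genes, and in zygotes the same 3 genes were called in the same directions, beside 24.4% and 23.3%. In 2-cell embryos 1 was called higher (Cdkn1b) and 4 lower (Ccne1, Ccna2, Cdk2 and Cdk4), beside 22.6% and 26.4% of all genes. The median log2 difference of the 9 was -0.06, 0.18, -0.08 and -0.76 from GV to the 2-cell stage, beside -0.12, 0.09, 0.01 and -0.05 over all genes. The GV and 2-cell medians are the values of Ccnd1 itself, and the zygote median is that of Ccnd2. Both genes were low at those stages, so these medians show no shift of the set. At MII and in zygotes the share called was not above that of all genes. Across the steps in labelled Btg4-/- libraries, 1 rose and 4 fell from GV to MII (27.3% and 18.1% of all genes), 0 were called from MII to zygote (15.7% of all genes in either direction; 2 by limma at an unadjusted p under 0.05, both lower), and 4 rose and 2 fell from zygote to 2-cell (18.3% and 28.2%). In wild type, 0 rose and 7 fell from GV to MII, beside 25.2% and 28.5% of all genes, 2 rose and 0 fell from MII to zygote (20.5% and 8%), and 5 rose and 1 fell from zygote to 2-cell (27.1% and 30.2%). The wild-type GV to MII median over the 9 was -1.75, beside -0.02 over all genes. The difference between genotypes in a step was called for 5 of the 9 from GV to MII, 1 from MII to zygote and 4 from zygote to 2-cell, beside 42.5%, 12.2% and 48% of all genes. The genotype comparisons and the stage steps share libraries.

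The other genes of the pathway came from a list of 33, of which 28 entered the fit: CDK inhibitors, retinoblastoma family proteins, E2F and DP factors, other kinases and their activators, and ubiquitin ligase parts that degrade cyclins or p27. Of these 28, limma called 0 higher and 4 lower in labelled Btg4-/- GV oocytes (0 and 4 at an unadjusted p under 0.05), 7 and 7 at MII, 5 and 8 in zygotes, and 6 and 11 in 2-cell embryos. Of all genes, 1.45% were called higher and 6.46% lower at GV, and 29.1% and 23.3% at MII. In zygotes these shares were 24.4% and 23.3%, and in 2-cell embryos 22.6% and 26.4%. At MII and in zygotes the share of the 28 called in either direction was not above that of all genes. The median log2 difference of the 28 was -0.17, 0.17, -0.30 and -0.11 from GV to the 2-cell stage, beside -0.12, 0.09, 0.01 and -0.05 over all genes. In 2-cell embryos 6 of the 8 tested E2F and DP factors and 3 of the 6 CDK inhibitors were called lower and 0 of either were called higher, beside the shares of all genes given above. Of the 6, E2f7 passed the expression filter through wild-type 2-cell embryos alone, and E2f8 through wild-type zygotes and 2-cell embryos alone, so that the count is a description only. These 6 and 3 calls were as many under median-of-ratios scaling and under quantile normalization, and their direction is opposite to that of Cdkn1b. Cdkn1a, which encodes p21, stood at 0.532 and 1.83 FPKM in labelled Btg4-/- 2-cell embryos, against 25.6 and 26.2 FPKM in wild-type ones (-3.69, adjusted p = 1.31e-05), and Cdkn2d, an inhibitor of Cdk4 and Cdk6, stood at 14.2 and 6.83 FPKM, against 42.9 and 40.9 FPKM in wild type (-1.98, adjusted p = 0.000466). Of the ligase parts, Skp1a, the adaptor of SCF ligases, stood at 1877 and 2201 FPKM in labelled Btg4-/- 2-cell embryos, against 139 and 169 FPKM in wild-type ones (3.72, adjusted p = 1.18e-08).

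At MII, Cdk7, the catalytic subunit of the kinase that activates Cdk2 and Cdk4, stood at 249 and 269 FPKM in labelled Btg4-/- oocytes, against 30.3 and 25.8 FPKM in wild-type ones (3.17, adjusted p = 7.55e-10). Its cyclin partner Ccnh stood at 19.2 and 17.5 FPKM in labelled Btg4-/- zygotes, against 2.11 and 3.17 FPKM in wild-type zygotes (2.42, adjusted p = 0.000763), and at 11.9 and 29.1 FPKM in labelled Btg4-/- 2-cell embryos, against 2.78 and 0.304 FPKM in wild-type ones (3.15, adjusted p = 9.66e-05; 0.0633 with 2-cell embryos fitted alone). Fbxo31, an F-box protein that targets cyclin D1, was the higher in labelled Btg4-/- MII oocytes, at 28.4 and 21.9 FPKM against 3.1 and 3.2 FPKM in wild type (2.65, adjusted p = 4.2e-07). It was also the higher in labelled Btg4-/- zygotes (2.78, adjusted p = 3.96e-07). Rb1, the retinoblastoma protein gene, was the lower in labelled Btg4-/- MII oocytes, at 0.6 and 0.637 FPKM against 12.4 and 18.95 FPKM in wild type (-3.34, adjusted p = 6.18e-07), and in labelled Btg4-/- zygotes, at 1.47 and 2.91 FPKM against 19.7 and 23.4 FPKM in wild type (-2.86, adjusted p = 3.44e-06). E2f4, a repressive E2F, was lower at MII, at 5.61 and 6.79 FPKM in labelled Btg4-/- oocytes against 37.6 and 38.1 FPKM in wild type (-2.44, adjusted p = 1.18e-07). Cul1, the scaffold of SCF ligases, was lower in labelled Btg4-/- zygotes, at 6.26 and 8.85 FPKM against 51.3 and 63.5 FPKM in wild type (-2.78, adjusted p = 9.91e-07). At GV the differences were smaller, and the 4 calls became 0 under quantile normalization or without the second labelled Btg4-/- library, 1 without the first wild-type library, and 2 without either other GV library or under median-of-ratios scaling. Ambra1, which directs D cyclins to a ligase, stood at 4.34 and 3.47 FPKM in labelled Btg4-/- oocytes, against 9.97 and 7.35 FPKM in wild type (-0.97, adjusted p = 0.0103; 0.0931 without the second labelled Btg4-/- library and 0.109 without the first wild-type one). E2f2, an activating E2F, stood at 4.54 and 4.21 FPKM, against 8.44 and 8.45 FPKM in wild type (-0.81, adjusted p = 0.00593; 0.051 without the second labelled Btg4-/- library).

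**Figure D4:**
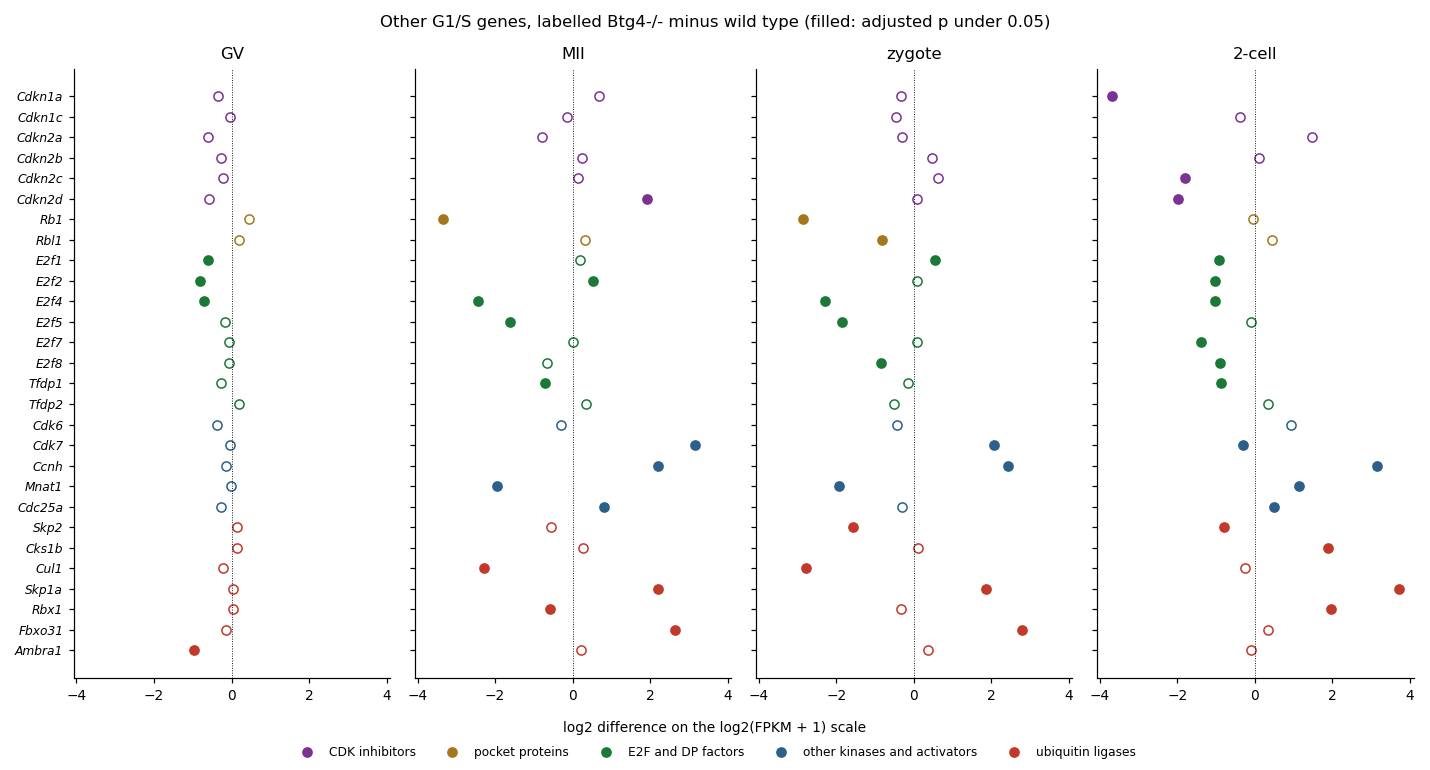
Log2 difference of labelled Btg4-/- from wild type at each stage for the 28 other G1/S genes in the fit, on the log2(FPKM + 1) scale; colours mark the classes and filled points an adjusted p under 0.05. Calls go in both directions at MII and in zygotes, and in 2-cell embryos 6 of 8 E2F and DP factors are called lower.

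Ccne1, Cdk2 and Cdk4 rose in wild type from zygote to 2-cell and differed from labelled Btg4-/- in that step, and Cdkn1b moved the other way in it, so the promoters of these 4 genes are given. The sequences are RefSeq's for build GRCm38.p6, 300 bases each, 5′ to 3′ on the gene's strand, 250 before the start of transcription and 50 after it; 6 of the 10 genes matched an entry (7 entries in all). Capitals mark an E2F-type motif (TTTCCCGC, TTTGGCGC, TTTCGCGC or TTTGCCGC) or a GC box (GGGCGG), on either strand; neighbouring matches can overlap and then form 1 run of capitals.
Ccne1, chr7:38107441-38107740, minus strand: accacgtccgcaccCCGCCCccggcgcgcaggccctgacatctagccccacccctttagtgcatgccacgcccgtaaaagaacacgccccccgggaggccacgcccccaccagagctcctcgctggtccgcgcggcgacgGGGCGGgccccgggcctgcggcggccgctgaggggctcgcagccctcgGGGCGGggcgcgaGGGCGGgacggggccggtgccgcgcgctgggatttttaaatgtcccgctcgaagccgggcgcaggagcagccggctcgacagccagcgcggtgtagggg
Cdk2, chr10:128705002-128705301, minus strand: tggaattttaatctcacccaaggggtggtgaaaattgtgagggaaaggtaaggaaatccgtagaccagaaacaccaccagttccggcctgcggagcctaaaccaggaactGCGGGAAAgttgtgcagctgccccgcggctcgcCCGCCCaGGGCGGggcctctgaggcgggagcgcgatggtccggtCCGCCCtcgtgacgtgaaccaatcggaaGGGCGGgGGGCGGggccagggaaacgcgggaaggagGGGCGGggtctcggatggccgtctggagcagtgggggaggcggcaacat
Cdk4, chr10:127063285-127063584, plus strand: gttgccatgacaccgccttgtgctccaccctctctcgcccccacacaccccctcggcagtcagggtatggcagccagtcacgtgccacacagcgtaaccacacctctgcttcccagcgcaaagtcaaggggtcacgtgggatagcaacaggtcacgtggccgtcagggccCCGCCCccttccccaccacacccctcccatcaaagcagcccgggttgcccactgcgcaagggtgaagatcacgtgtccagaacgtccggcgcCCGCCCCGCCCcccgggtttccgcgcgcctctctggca
Cdkn1b, chr6:134920151-134920450, plus strand: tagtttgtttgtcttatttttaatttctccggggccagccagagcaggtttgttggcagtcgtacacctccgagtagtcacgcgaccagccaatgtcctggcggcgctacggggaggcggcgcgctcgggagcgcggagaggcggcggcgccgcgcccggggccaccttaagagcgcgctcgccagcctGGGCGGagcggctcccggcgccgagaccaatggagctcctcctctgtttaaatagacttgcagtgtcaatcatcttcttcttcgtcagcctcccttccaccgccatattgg
The Ccne1 window is 76% G or C and holds 4 GC boxes and no E2F-type motif of these letters. That of Cdk2 is 64.7% G or C and holds 6 GC boxes, 1 CCAAT and 1 E2F-type motif, at position -140 from the start. That of Cdk4 is 67% G or C and holds 3 GC boxes, a pair of them overlapping, and that of Cdkn1b is 62% G or C and holds 1 GC box and 3 CCAAT motifs. No window of the 4 holds TATAAA. Over 32851 promoters of the same length, 2.26% hold an E2F-type motif, 35.7% a GC box, 37.4% CCAAT and 13.6% TATAAA, each searched on both strands. Ccne1, Cdk2 and Cdk4 did not share a motif of this search that Cdkn1b lacks. Ccna2 and Ccnd3 also rose from zygote to 2-cell in wild type, and Ccna2 matched no promoter entry. These are matches of letters, with no binding measured here.

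In oocytes the cytoplasmic polyadenylation element (CPE), a U-rich motif near the 3′ end, can keep an mRNA's tail short or lengthen it in maturation. It was searched as TTTTAT or TTTTAAT on the sense strand in the last 100 bases of 1 annotated transcript per gene (GENCODE M21, build GRCm38). Of the 10 genes Ccne1 and Cdk2 held one, and 17.9% of the 19429 genes with a 3′ untranslated region of at least that length did. Over the whole 3′ untranslated region every gene but Ccna1 held a match, with 8 each in Ccna2 and Cdkn1b. That region was 182 bases long in Ccna1, 1372 in Ccna2 and 3442 in Cdkn1b. No share over all genes was counted for the whole region. The last 100 bases of Ccne2 and Cdk4 held no poly(A) signal (AATAAA or ATTAAA). The sites of Ccne1 and Cdk2 are shown because only these genes of the 10 held a match in the window. The motif is in capitals, written as DNA.
Ccne1: ctatcaatTTTTAATaaagataa
Cdk2: aatatttcTTTTATgattttct
The Ccne1 motif starts 28 bases from the end and overlaps its poly(A) signal, AATAAA; that of Cdk2 starts 100 bases from the end, at the limit of the window. Cdk2 was higher in labelled Btg4-/- MII oocytes than in wild-type ones while Ccne1 was near 0 in both. The log2 difference of MII from GV in wild type was -3.35 for Cdk2 and -2.97 for Ccne1. In labelled Btg4-/- oocytes it was -0.06 for Cdk2 and -2.69 for Ccne1. Of the genes without a motif in the window, Ccne2, Ccna2, Ccnd2, Cdk4 and Cdkn1b were called lower at MII than at GV in wild type. Ccnd1 and Ccnd3 were not called in that step, and Ccna1 did not enter the fit. The fall of Ccnd2 was fixed in part by the filter. The part of the motif in these values was not tested.

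The genes whose profile over the 16 libraries of the Btg4 experiment lay closest to each of the 9 genes were found by the root mean square difference of log2(FPKM + 1) profiles, each centred on its own mean, out of all 12311 genes. Closest to Ccne1 were Ppp2cb (0.73) and Mta2 (0.77), with mean levels of 0.539 and 0.468 FPKM in labelled Btg4-/- 2-cell embryos, against 79.5 and 90.3 FPKM in wild-type ones. Closest to Ccna2 were Ryk and Dbf4 (0.27 each), and Dbf4, the activator of the replication kinase Cdc7, averaged 93.7 FPKM in labelled Btg4-/- 2-cell embryos and 165 FPKM in wild-type ones. Closest to Cdk2 were Emc7 (0.33) and Tmem251 (0.34), to Cdk4 Tmem222 (0.29) and Selrc1 (0.34), and to Cdkn1b Ankrd66 (0.36) and Vwa2 (0.37). Ccne2 lay closest to Foxl2 (0.21) and to AI597479 (0.23). Foxl2 is one of the 14 granulosa markers and passed the filter through GV alone. It averaged 1.85 FPKM in labelled Btg4-/- and 1.22 FPKM in wild-type GV oocytes and was listed at 0 in every later library. Ccne2 stayed at 7.10 FPKM or more in those libraries. The log2(FPKM + 1) scale understates the change of low genes, so a shared source is not shown by this match and was not tested. Ccnd1 lay closest to Cyld (0.22) and 9930021J03Rik (0.26), Ccnd2 to St3gal4 (0.32) and Fst (0.35), and Ccnd3 to Agpat1 (0.33) and Nr6a1 (0.42). A flat profile such as that of Ccnd1 is close to many genes, so these distances are comparable within a gene, not between genes.

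The Erk experiment has 1 library a group, so it gives no test, and its values stand with deposited intervals that cover counting error only. Between 0.664% and 2.78% of the genes that reached 20 FPKM in all 4 Btg4-experiment libraries of the same stage were listed at 0 in these libraries, so a 0 here may be a failed estimate. None of 10 housekeeping genes was listed at 0.

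Ccne1 was the lower in labelled Erk-/- oocytes at both stages: 6.54 FPKM, against 13.7 FPKM in wild type, at GV, and 0.556 FPKM, against 3.46 FPKM in wild type, at MII. The log2 differences were -0.96 at GV and -1.52 at MII, and the deposited intervals did not overlap (5 to 8.03 against 11.3 to 15.7 FPKM at GV). Cdk2 was the lower at GV, with 6.23 FPKM in labelled Erk-/- oocytes, against 11.7 FPKM in wild type, and the higher at MII, with 2.64 FPKM, against 0.792 FPKM in wild type (log2 differences of -0.81 and 1.02). Cdk4 was listed at 0 in labelled Erk-/- GV oocytes, against 21.4 FPKM in wild type, and stood at 2.69 FPKM in labelled Erk-/- MII oocytes, where wild type was listed at 0. Cdkn1b stood at 11.5 FPKM in labelled Erk-/- GV oocytes, against 11.4 FPKM in wild type, and at 7.55 FPKM in labelled Erk-/- MII oocytes, where wild type was listed at 0. Ccna2 stood at 27.7 FPKM in labelled Erk-/- GV oocytes, against 28.6 FPKM in wild type, and at 74.6 FPKM in labelled Erk-/- MII oocytes, against 94.3 FPKM in wild type. Ccnd3 stood at 11.5 and 13.6 FPKM in labelled Erk-/- GV and MII oocytes, against 13.02 and 18.6 FPKM in wild-type ones. Ccne2 was listed at 0 in both GV libraries and stood at 1.87 FPKM in labelled Erk-/- MII oocytes, against 2.42 FPKM in wild type. Ccna1 and Ccnd2 were listed at 0 in all 4 libraries, and Ccnd1 in all but wild-type GV, at 0.977 FPKM.

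**Figure D5:**
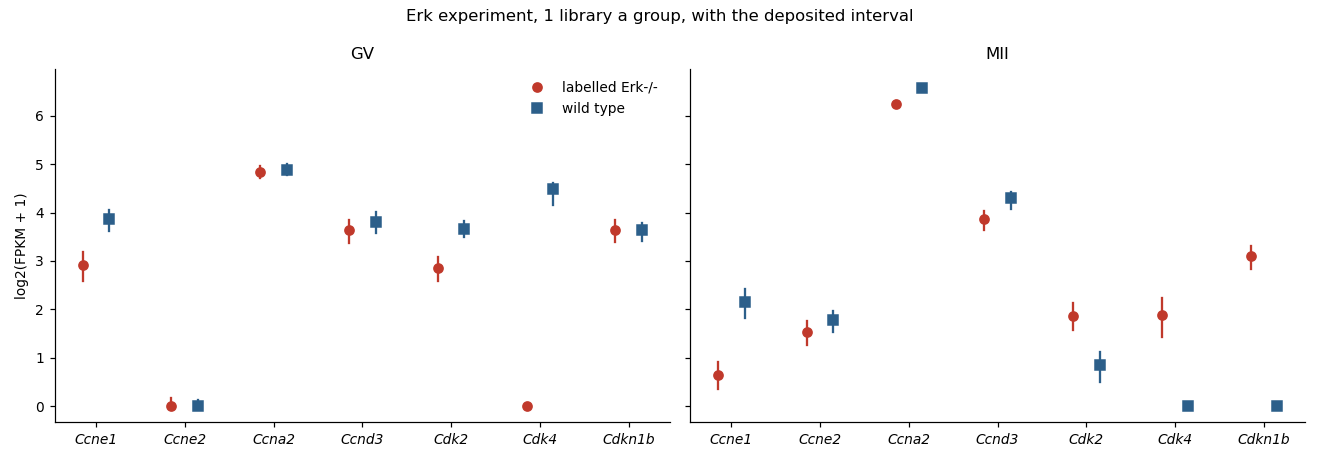
Level of the 7 genes that reached 1 FPKM in a library of the Erk experiment, on the log2(FPKM + 1) scale, 1 library a group with its deposited interval, labelled Erk-/- left of wild type. Points at 0 are values listed at 0, among them Cdk4 in labelled Erk-/- GV oocytes and Cdk4 and Cdkn1b in wild-type MII oocytes.

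By a fixed size of difference, at least 1 on the log2 scale, 0 of the 7 genes were higher and 1 lower in labelled Erk-/- GV oocytes, beside 18.7% higher and 23.5% lower of the 11404 genes at 1 FPKM or more in a library. At MII 3 were higher (Cdk2, Cdk4 and Cdkn1b) and 1 lower (Ccne1), beside 30.7% and 8.08%. From GV to MII 3 were higher and 1 lower in labelled Erk-/- oocytes (23.9% and 33.4% of genes), and 2 were higher and 4 lower in wild type (20.4% and 46.9%). In these steps Ccne2 and Cdk4 in both genotypes, and Cdkn1b in wild type, rest on a value listed at 0. So does Cdk4, the 1 gene lower at GV. Of the 3 higher at MII, Cdk4 and Cdkn1b rest on a wild-type value listed at 0, and Cdk2 lay just past the limit, at 1.02; the 4 past it in either direction became 3 under median-of-ratios scaling. The steps from GV to MII of wild type did not match between the experiments for every gene. In wild type of the Erk experiment Ccna2 was higher at MII than at GV, with 94.3 and 28.6 FPKM, while in that of the Btg4 experiment it fell. Btg4 itself showed the same reversal, at 2987 FPKM in MII and 216 FPKM in GV wild-type oocytes of the Erk experiment, against 415 and 406 FPKM in MII and 1450 and 1673 FPKM in GV wild-type oocytes of the Btg4 experiment. Levels were therefore not compared across the experiments.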

How the data were processed

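The authors deposited 1 table of gene-level FPKM per library, with an interval around each value; per the submitters' processing notes they used CASAVA 1.8, TopHat, Cufflinks and mm9. No version of TopHat or Cufflinks is given in the sources used here, nor are the annotation and the use of strand, and depth was judged from the deposited intervals, in relative terms only. Per the labels, mRNA was purified before library making; FPKM are shares of a library, and an mRNA's tail length may affect its capture.

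The 23813 loci were summed to 23309 symbols (260 with several loci; each member has 1). Genes with a mean of at least 1 FPKM in at least 1 of 8 groups (12311, with 9 of the 10 members) were fitted on log2(FPKM + 1), which understates the change of low genes, with limma 3.58.1 in R 4.3.3: a mean per group over the Btg4 experiment's 16 libraries, leaving 8 residual degrees of freedom, with trended variances and Benjamini-Hochberg adjustment per contrast over all genes fitted. The code was tested on simulated data. The Erk experiment, with 1 library a group, was described by size of difference (11404 genes). Motifs were searched in RefSeq and GENCODE sequences, matched by symbol.

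The members and lists were chosen with earlier results of these data known. Text names all members, up to 2 called pathway genes a direction per genotype comparison, those with the largest log2 difference, and the 2 closest profiles per member. Alternatives were a pseudocount of 0.1 FPKM, no filter and a filter of 5 FPKM, median-of-ratios scaling, quantile normalization, each stage fitted alone, a replicate block, and each library left out in turn, where the lone library of its group is assumed to vary like those of the other groups. The check of the Erk labels by gene level is not reported here.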

Additional observations from a re-analysis of the deposited data

Results flagged for a closer look

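In 10 cases the step of a gene from one stage to the next differed between labelled Btg4-/- and wild type by limma's test of that difference; values are differences of the steps, labelled Btg4-/- minus wild type, on the log2(FPKM + 1) scale. For the step from GV to MII the difference was -1.36 for Ccna2 (adjusted p = 0.000352), 1.31 for Ccnd3 (adjusted p = 0.021), 3.29 for Cdk2 (adjusted p = 1.89e-06), 1.86 for Cdk4 (adjusted p = 0.00487) and 1.43 for Cdkn1b (adjusted p = 0.000918). That of Ccnd3 was not called under median-of-ratios scaling (adjusted p = 0.0576) or quantile normalization (0.0753), nor without the first or second labelled Btg4-/- GV library (0.0501 and 0.0516), the first wild-type GV library (0.0997), the second labelled Btg4-/- MII library (0.0723) or the second wild-type MII library (0.0888). That of Cdkn1b was 0.90 under quantile normalization (adjusted p = 0.0187). For the step from MII to zygote it was -1.30 for Cdk2 (adjusted p = 0.0109). For the step from zygote to 2-cell it was -6.73 for Ccne1 (adjusted p = 1.24e-07), -2.95 for Cdk2 (adjusted p = 3.86e-06), -2.83 for Cdk4 (adjusted p = 0.000223) and 2.05 for Cdkn1b (adjusted p = 4.95e-05). Of all genes tested, 42.5%, 12.2% and 48% were called in these 3 differences, in stage order. Neighbouring steps share the libraries of the stage between them.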

How the results depend on the processing

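Over the alternatives for single genes of the set, 1254 values stayed on their side of the threshold, 35 were no longer called and 12 became called. Direction turned in 0 cases where a value was called as reported or in the alternative. Turns between values called in neither were not counted. At GV the 2 calls became 1 with no filter, median-of-ratios scaling, quantile normalization or the replicate block, and 0 with GV fitted alone, and the 973 genes called became 487 under quantile normalization and 0 with GV fitted alone (2956 at an unadjusted p under 0.05 in limma); the cause was not tested. With 2-cell embryos fitted alone 3435 genes were called, against 6037 over all libraries. Called members from MII to zygote in wild type, 2, became 1 under median-of-ratios scaling and 0 under quantile normalization, and in labelled Btg4-/- the 0 became 1 under median-of-ratios scaling. Past the fold at GV in the Erk experiment were 2 instead of 1 with a pseudocount of 0.1 FPKM. Leaving out 1 library at a time gave 262 to 649 genes and 0 to 1 members called at GV, 2015 to 2602 genes and 1 to 2 members from MII to zygote in wild type, 801 to 1086 genes in that step in labelled Btg4-/-, and 874 to 1202 genes for the difference of those steps. For the other pathway genes named, 146 alternative values stayed on their side of the threshold, 8 were no longer called and 0 turned their direction; in 2-cell embryos fitted alone 10 of the 28 were called, not 17. Of all genes called at GV, 18.3% were higher as reported, 53.6% with median-of-ratios scaling and 38.2% with quantile normalization. In the same order that share was 71.9%, 50.8% and 52% from MII to zygote in wild type, and 62.4%, 52.2% and 48.8% for the difference of the GV to MII steps. Under median-of-ratios scaling it was 46.5%, not 60.2%, from GV to MII and 39.5%, not 65.8%, from MII to zygote in labelled Btg4-/-; of genes past the fold it was 59.2%, not 79.2%, at MII in the Erk experiment and 42.7%, not 30.2%, from GV to MII in its wild type. Under quantile normalization it was 56.3%, not 40.6%, for the difference of the MII to zygote steps. Median-of-ratios scaling moved the median of all genes at GV from -0.12 to 0 on the log2 scale, and that from MII to zygote in wild type from 0.22 to 0.04. Same-numbered libraries of the 2 genotypes did not deviate together within a stage (correlations of -0.01, 0.02, 0.05 and 0.02 from GV to 2-cell). Pairing of same-numbered libraries across stages was not tested in this way. With the replicate block in the limma fit the GV difference of Ccnd3 had an adjusted p of 0.0508. With 2 libraries a group and few fragments behind values under 1 FPKM, the data limit what can be said of Ccna1, Ccnd1 and Ccne1 outside GV and wild-type 2-cell embryos.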
